A study of Homo sapiens with 9 samples.

Results

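Small Cajal body-specific RNAs (scaRNAs) of the H/ACA type are short noncoding RNAs that lie in introns and pair with a target RNA to direct the conversion of uridine to pseudouridine. The H/ACA scaRNAs followed here were SCARNA1, SCARNA4, SCARNA8, SCARNA11, SCARNA13, SCARNA14, SCARNA16, SCARNA18, SCARNA20 and SCARNA22. They were chosen by name as scaRNA genes with H/ACA structure and no C/D structure. This rule uses no measured value, although it was set with earlier results of these data known. These 10 genes were among 58425 genes with a matched transcript, and 8 of them were among the 18444 genes with enough reads for the test. Nuclear RNA was sequenced from U2OS, a human osteosarcoma line, after transfection with 1 of 3 siRNAs at 15 nM for 48 h. The control siRNA (siControl), the siRNA against dyskerin (siDyskerin) and the siRNA against GAR1 (siGAR1) were each given to 3 biological replicates, making 9 libraries of 1 cell line. Each of the 3 groups thus received an siRNA, and each knockdown rests on a transient transfection.

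An H/ACA RNA folds into hairpins, and each hairpin carries a pocket that pairs with the bases on both sides of the target uridine. Single-stranded stretches between and after the hairpins hold the H box and the ACA box, and a set of core proteins binds the folded RNA. Dyskerin, encoded by DKC1, is the pseudouridine synthase of the particle, whereas NOP10, NHP2 and GAR1 complete it, with GAR1 joining last. A CAB box in the hairpin loops is bound by WRAP53 and keeps scaRNAs in Cajal bodies, where their spliceosomal small nuclear RNA (snRNA) targets are modified.

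Read counts summed over all transcripts were 48838756 to 90698675 per library, of which 574 to 2950 lay on the 10 RNAs. A read that fits several transcripts was taken to enter these sums more than once, which was not tested. DKC1 was at 20777 to 22716 scaled reads in siControl and at 3075 to 3124 in siDyskerin (log2 fold change −2.79, SE 0.07, edgeR adjusted p = 1.5e-11). GAR1 was at 594 to 664 in siControl and at 83.9 to 115 in siGAR1 (log2 fold change −2.68, SE 0.12, edgeR adjusted p = 6.1e-08). Scaled reads are reads divided by the effective size of their library and multiplied by the mean effective size. Of the fixed mesenchymal markers, 5 of 6 passed the count filter, whereas COL1A2 was near 0 in all groups. The summed level of this list was 492241 to 546782 scaled reads in siControl, 457091 to 495976 in siDyskerin and 432525 to 453111 in siGAR1. With edgeR, 1 of the 5 passed lower in siGAR1 and 0 passed in siDyskerin. With the SNORD scaling described below, 0 passed in either. Of 9 markers of other cell types, 6 were tested, CD3E was at 0, and CDH17 and VIL1 were near 0. All 6 had values above 0 in both knockdowns (medians 0.33 in siDyskerin and 0.41 in siGAR1). Their summed level was 51955 to 59718 scaled reads in siControl, 78058 to 78914 in siDyskerin and 64741 to 77465 in siGAR1. Most of this came from the keratins KRT8 and KRT18, which U2OS expressed at high level. KRT8 passed in siDyskerin (log2 fold change 0.48, edgeR adjusted p = 1.8e-04) and was at 0.21 in siGAR1. KRT18 was at 0.56 in siDyskerin (edgeR adjusted p = 0.011) and at 0.52 in siGAR1 (edgeR adjusted p = 0.023). The part of these markers in the results was not tested, and with the SNORD scaling described next KRT8 no longer passed and was at −0.08 in siGAR1. Reads on SNORD genes, the C/D small nucleolar RNAs, made up 769 to 1113 ppm of the matched reads in siControl, 756 to 827 in siDyskerin and 905 to 1539 in siGAR1. The highest share was that of siGAR1 replicate 1. Whether this share differed through the recovery of short RNAs or through their level was not tested. A second scaling, on the 31 SNORD genes tested, shows how far the results below moved when these genes were held level. With this scaling the genes called lower and higher turned from 98 and 75 to 34 and 127 in siDyskerin against siControl, from 18 and 34 to 38 and 5 in siGAR1 against siControl, and from 96 and 37 to 22 and 533 in siDyskerin against siGAR1.

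The sequences of 6 of the RNAs are shown because 4 of them carried the calls between groups, SCARNA22 was the third in level, and SCARNA11 was the one with the smallest difference after dyskerin knockdown. They are given 5′ to 3′ as DNA letters from GENCODE 44 on GRCh38. Capitals mark ACA near the 3′ end and each TGAG, letters of the CAB box, wherever they occur. Hairpins were not searched for, so a marked TGAG need not be a CAB box. SCARNA13 lies at chr14:95533355-95533629 (−), SCARNA16 at chr17:77089307-77089493 (+), SCARNA18 at chr5:83064204-83064337 (−), SCARNA20 at chr17:60231516-60231646 (−), SCARNA22 at chr4:1974636-1974760 (+) and SCARNA11 at chr12:6581474-6581609 (−).
SCARNA13: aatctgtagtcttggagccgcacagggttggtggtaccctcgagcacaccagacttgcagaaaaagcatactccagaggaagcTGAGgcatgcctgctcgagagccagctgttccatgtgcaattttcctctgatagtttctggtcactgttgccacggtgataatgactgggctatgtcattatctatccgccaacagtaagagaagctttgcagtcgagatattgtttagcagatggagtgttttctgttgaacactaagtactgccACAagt
SCARNA16: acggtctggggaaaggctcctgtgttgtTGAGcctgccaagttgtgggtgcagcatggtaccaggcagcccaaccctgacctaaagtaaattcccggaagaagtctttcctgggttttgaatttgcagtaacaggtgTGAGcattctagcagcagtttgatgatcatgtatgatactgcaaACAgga
SCARNA18: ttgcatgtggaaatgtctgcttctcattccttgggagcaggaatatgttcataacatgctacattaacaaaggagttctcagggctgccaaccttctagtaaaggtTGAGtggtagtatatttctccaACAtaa
SCARNA20: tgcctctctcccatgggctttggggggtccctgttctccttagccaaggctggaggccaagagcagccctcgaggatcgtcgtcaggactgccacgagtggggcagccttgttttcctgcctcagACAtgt
SCARNA22: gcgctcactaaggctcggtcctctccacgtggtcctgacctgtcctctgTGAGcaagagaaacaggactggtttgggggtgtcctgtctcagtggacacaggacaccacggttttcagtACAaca
SCARNA11: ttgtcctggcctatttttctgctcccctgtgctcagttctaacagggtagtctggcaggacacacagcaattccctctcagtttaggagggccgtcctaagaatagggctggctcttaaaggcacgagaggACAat

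The 10 RNAs were 125 to 275 bases long, with a median of 135, and 40.3 to 61.1% of their bases were G or C. SCARNA13 was the longest, and the other 9 reached at most 187 bases. ACA stood exactly 3 bases before the 3′ end in 8 of the 10, and in SCARNA11 and SCARNA14 the last ACA was followed by 2 bases. This end was found in 66.4% of 214 SNORA transcripts, the H/ACA RNAs of the nucleolus, and in 1.59% of 314 SNORD transcripts. The H box letters ANANNA occurred in all 10 RNAs, in 98.1% of SNORA and in 84.1% of SNORD transcripts, so that a match alone is common. TGAG was present in 7 of the 10 and absent from SCARNA11, SCARNA14 and SCARNA20. It occurred in 42.5% of SNORA and 84.4% of SNORD transcripts, so that its presence or absence does not settle whether a CAB box is there. Only the RNA strand was searched, and overlapping matches were counted. The longest run of bases shared by any pair of the 10 was 9, shorter than the 50-base reads.

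Each of the 10 lay inside another gene on the same strand. SCARNA13 sits in intron 1 of SNHG10, a noncoding host gene, 63 bases after its first exon. SCARNA16 lies in intron 2 of SNHG20, a noncoding gene, and also within the span of the protein-coding gene SEC14L1. SCARNA18 lies in intron 2 of TMEM167A, SCARNA20 in intron 12 of USP32, SCARNA22 in intron 18 of NSD2, SCARNA11 in intron 31 of CHD4, SCARNA1 in intron 2 of PPP1R8 and SCARNA4 in intron 6 of KHDC4. SCARNA8 lies in intron 12 of HAUS6 and SCARNA14 in intron 6 of TIPIN. Reads of the intron that fall on these positions cannot be told from reads of the mature RNA.

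The first question was how strongly each RNA was represented in nuclei with the control siRNA. Levels between genes are given as TPM, a share of the library's transcripts after division by length. SCARNA13, a tandem H/ACA RNA assigned to U2 and U5 snRNA, led with 195 ± 6.45 TPM (SD, n = 3) in siControl. It held 85.8% of the reads of the 10. SCARNA16, assigned to U1 snRNA, followed with 41.5 ± 5.89 TPM, and SCARNA22 with 17.1 ± 5.44 TPM. SCARNA20 was at 8.17 ± 2.43 TPM and SCARNA4, assigned to U2 snRNA, at 4.80 ± 0.65 TPM, and these neighbours overlapped between libraries. SCARNA11, assigned to U5 snRNA, was at 3.69 ± 0.25 TPM. SCARNA18 was at 3.60 ± 1.196 TPM and SCARNA1, assigned to U2 snRNA, at 3.14 ± 0.99 TPM, and neither was separated from its neighbour above. SCARNA8 (0.311 ± 0.075 TPM) and SCARNA14 (0.0999 ± 0.173 TPM) were at the floor and overlapped. The order was therefore resolved for SCARNA13, SCARNA16 and SCARNA22, and for the 2 RNAs at the floor against the rest.

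Few reads were found for 7 of the 10, which had a mean below 20 scaled reads over the 9 libraries. SCARNA8 had 1, 1 and 1 reads in siControl, 1, 1 and 0 in siDyskerin and 2, 4 and 2 in siGAR1. SCARNA14 had 1, 0 and 0 reads in siControl, 1, 1 and 0 in siDyskerin and 0, 1 and 1 in siGAR1. These 2 did not pass the count filter and were not tested. The ratio of SCARNA8 reads between siGAR1 and siControl, corrected for depth, was 2.97 with a 95% interval of 0.714 to 17.4 from counting error alone, so that no difference was detectable at this depth. The summed scaled reads of the 2 RNAs were 1.22 ± 0.32 in siControl, 1.22 ± 1.06 in siDyskerin and 3.54 ± 1.60 in siGAR1 (n = 3 each). Exact two-sided permutation tests gave p = 1.0 for siDyskerin against siControl and p = 0.1 for siGAR1 against siControl, where 0.1 is the smallest p that 3 against 3 allows. SCARNA1, SCARNA4, SCARNA11, SCARNA18 and SCARNA20 passed the filter, but with 36, 43, 31, 28 and 63 reads in all 3 siControl libraries together. SCARNA13 (5639 reads), SCARNA16 (604 reads) and SCARNA22 (125 reads) were better counted.

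**Figure D1:**
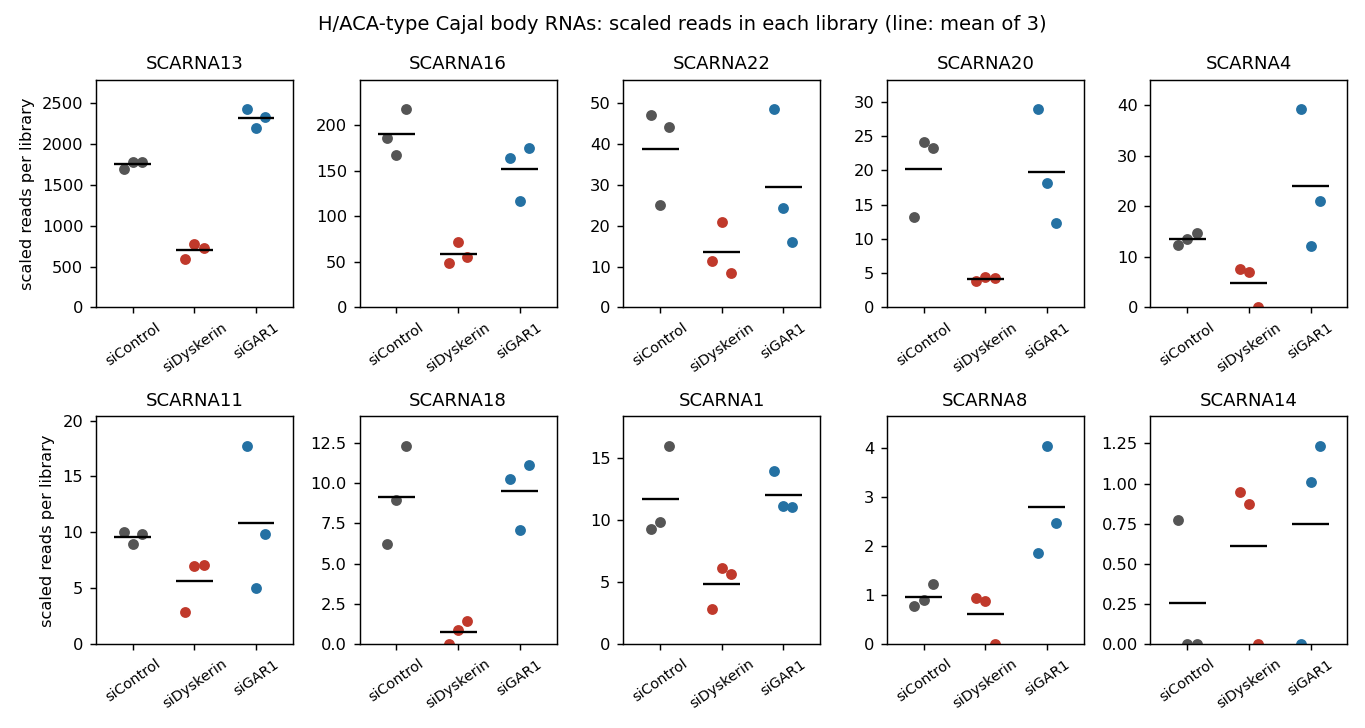
Scaled reads (vertical axes, linear from 0, with a scale of its own in each panel) of the 10 H/ACA scaRNAs in each library of siControl, siDyskerin and siGAR1, with a line at the mean of 3 libraries. In SCARNA13 the 3 groups occupy separate ranges, with means of 1755, 700.3 and 2316, whereas SCARNA8 and SCARNA14 stay at a few reads in every library.

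After depletion of dyskerin, SCARNA13, SCARNA16, SCARNA18 and SCARNA20 were lower than in siControl. SCARNA13 was left at 39.9% of its control level, SCARNA16 at 31.1%, SCARNA20 at 21.2% and SCARNA18 at 9.10%. A gene was called where the edgeR adjusted p was under 0.01 and the absolute log2 fold change above 1. By this rule 4 of the 8 tested scaRNAs were called lower and none higher, against 0.531% of all genes tested that were called lower. All 8 tested values were below 0, with a median log2 fold change of −1.38 beside 0.003 for all genes. These 8 are the members that passed the count filter. SCARNA1, SCARNA4, SCARNA11, SCARNA18 and SCARNA20 passed it only through siControl and siGAR1, as no siDyskerin library reached its read threshold. The count, the common sign and the median therefore describe the tested members alone. In bulk nuclear RNA, fewer nuclei with an RNA and less of the RNA per nucleus cannot be told apart.

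SCARNA13 had 2200, 1985 and 1454 reads in siControl and 627, 886 and 516 in siDyskerin. After scaling these were 1755 ± 47.9 and 700.3 ± 93.6 (SD, n = 3), and the highest siDyskerin library, at 775.6, was far below the lowest control at 1699.7. The log2 fold change was −1.33 (SE 0.09, 95% interval −1.53 to −1.12, edgeR adjusted p = 1.4e-06). SCARNA16 had 240, 187 and 177 reads in siControl and 51, 82 and 39 in siDyskerin. All siDyskerin libraries were below all controls, with 58.5 ± 12.0 scaled reads against 190 ± 25.1. The log2 fold change was −1.68 (SE 0.20, 95% interval −2.11 to −1.26, edgeR adjusted p = 8.4e-05). Both calls held with each of the 9 libraries left out in turn.

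SCARNA18 showed the lowest value, on few reads. It had 8, 10 and 10 reads in siControl and 0, 1 and 1 in siDyskerin. The log2 fold change was −3.46 (SE 0.71, edgeR adjusted p = 0.0051). The ratio of reads was 0.0796, and its 95% interval from counting error ran from 0.0092 to 0.316. SCARNA20 had 17, 27 and 19 reads in siControl and 4, 5 and 3 in siDyskerin, and its 3 depleted libraries agreed closely at 4.14 ± 0.30 scaled reads. Its log2 fold change was −2.23 (SE 0.46, edgeR adjusted p = 0.0051). Both calls were lost when siControl replicate 2, siControl replicate 3 or any siDyskerin library was left out. The edgeR adjusted p then lay between 0.014 and 0.027 for SCARNA18, and between 0.020 and 0.025 for SCARNA20. The fold changes in all leave-one-out fits stayed at −3.98 to −2.90 for SCARNA18 and at −2.50 to −2.07 for SCARNA20.

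**Figure D2:**
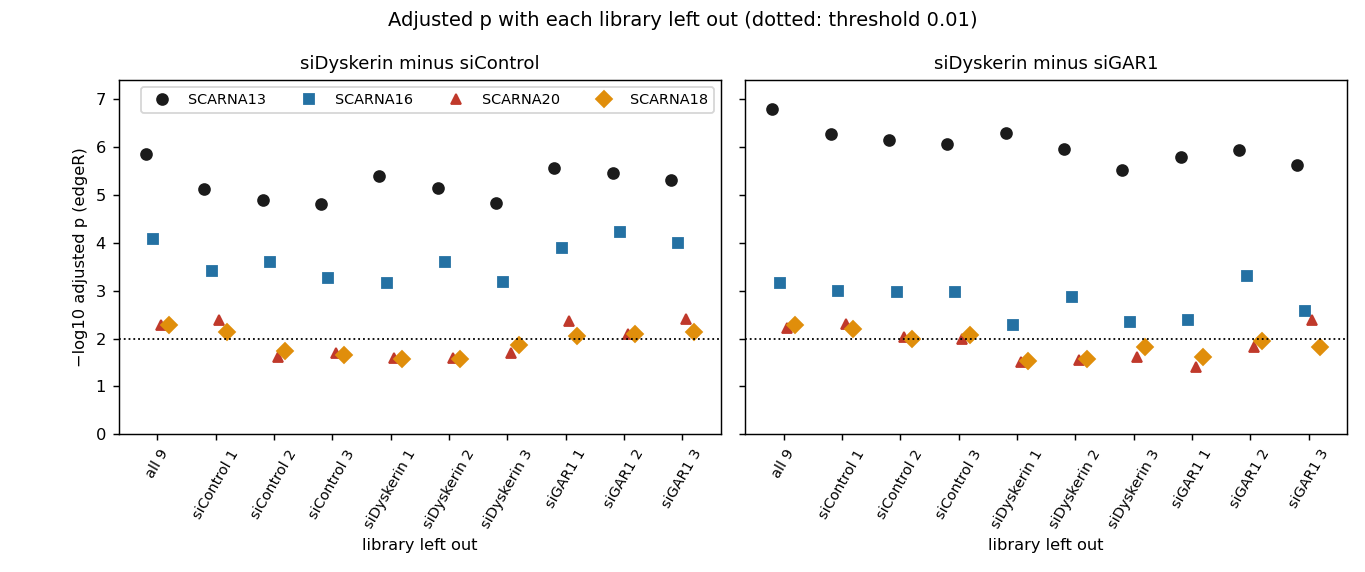
Strength of the calls, as −log10 of the edgeR adjusted p (vertical axis), for the 4 called scaRNAs with all 9 libraries and with each library left out (horizontal axis); the dotted line is the threshold of 0.01. SCARNA13 and SCARNA16 stay above the line throughout, whereas SCARNA18 and SCARNA20 drop below it when any 1 of the siDyskerin libraries is left out.

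The other 4 tested scaRNAs did not pass. SCARNA22 had 61, 28 and 36 reads in siControl and 12, 24 and 6 in siDyskerin, with a log2 fold change of −1.44 (95% interval −2.37 to −0.52, edgeR adjusted p = 0.041). SCARNA1 had 12, 11 and 13 reads against 3, 7 and 4, with a value of −1.22 (95% interval −2.16 to −0.27, edgeR adjusted p = 0.089). SCARNA4 had 16, 15 and 12 reads against 8, 8 and 0, with a value of −1.30 (95% interval −2.61 to 0.01, edgeR adjusted p = 0.20). Their intervals reached well past the values of SCARNA13 and SCARNA16. SCARNA11 had 13, 10 and 8 reads against 3, 8 and 5, with the smallest difference at −0.78 (95% interval −1.90 to 0.33, edgeR adjusted p = 0.38). Without siDyskerin replicate 1 its value was −0.45 (edgeR adjusted p = 0.70). SCARNA4 is annotated as a pair of nested genes that share reads, and the longer entry is the one reported.

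Scaling on SNORD genes moved the median of all genes by 0.25 on the log2 scale in this comparison. With it all 8 values stayed below 0, from −3.29 to −0.57. SCARNA13 (−1.09, edgeR adjusted p = 0.0049) and SCARNA16 (−1.47, edgeR adjusted p = 0.0016) were still called, whereas SCARNA18 (edgeR adjusted p = 0.012) and SCARNA20 (edgeR adjusted p = 0.021) were not.

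Depletion of GAR1 gave no called scaRNA in either direction, where 0.0976% of all genes tested were called lower and 0.184% higher, a balance that the SNORD scaling turned, as given above. With edgeR, 1 of the 8 had an unadjusted p under 0.05, and DESeq2 also called 0. The median log2 fold change was 0.09 beside 0.009 for all genes, with 6 values above 0 and 2 below. The siGAR1 libraries lay wholly above the controls in 1 of 8, beside 13.6% of all genes.

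That 1 was SCARNA13. It had 2602, 2172 and 1888 reads in siGAR1, or 2316 ± 116 scaled reads (n = 3) against 1755 ± 47.9 in siControl. The lowest siGAR1 library, at 2194, was above the highest control at 1785. The log2 fold change was 0.40 (SE 0.09, 95% interval 0.21 to 0.60, edgeR adjusted p = 0.014), which missed the threshold. DESeq2 gave nearly the same value of 0.39 with an adjusted p of 8.2e-04, still under the fold threshold. With SNORD factors the value was 0.09 (SE 0.26, edgeR adjusted p = 0.85). Relative to the main factors, the SNORD factors were 1.77, 1.03 and 1.04 in siGAR1 replicates 1, 2 and 3. In siControl they were 0.95, 0.98 and 1.00. The size was therefore not kept, and with SNORD factors the sign was not settled.

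SCARNA16 had 176, 116 and 142 reads in siGAR1, with a log2 fold change of −0.32 (95% interval −0.71 to 0.07, edgeR adjusted p = 0.31). Its value was −0.17 without siGAR1 replicate 2 and −0.65 with SNORD factors. SCARNA13 and SCARNA16 thus had values of opposite sign, though their difference was not tested. SCARNA22 had 52, 24 and 13 reads and a value of −0.36 (95% interval −1.20 to 0.48). This value moved to −0.93 without siGAR1 replicate 1, to −0.61 without siControl replicate 2, to −0.18 without siControl replicate 1, to −0.23 without siGAR1 replicate 2, to −0.09 without siGAR1 replicate 3 and to −0.81 with SNORD factors. SCARNA4 had 42, 12 and 17 reads and a value of 0.85 (95% interval −0.21 to 1.91, edgeR adjusted p = 0.32), and without siGAR1 replicate 1, its highest library, the value was 0.27. The same library was the highest of its group for SCARNA22, SCARNA20 (31, 18 and 10 reads), SCARNA11 (19, 5 and 8 reads) and SCARNA1 (15, 11 and 9 reads), and it also had the most SNORD reads. SCARNA18 had 11, 7 and 9 reads. SCARNA1, SCARNA11, SCARNA18 and SCARNA20 had values of 0.09, 0.20, 0.09 and 0.02, all with intervals from below −0.7 to above 0.7, and these 4 turned negative with SNORD factors. An equal level was thus not shown for these 4, since changes of that size remained within the intervals.

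**Figure D3:**
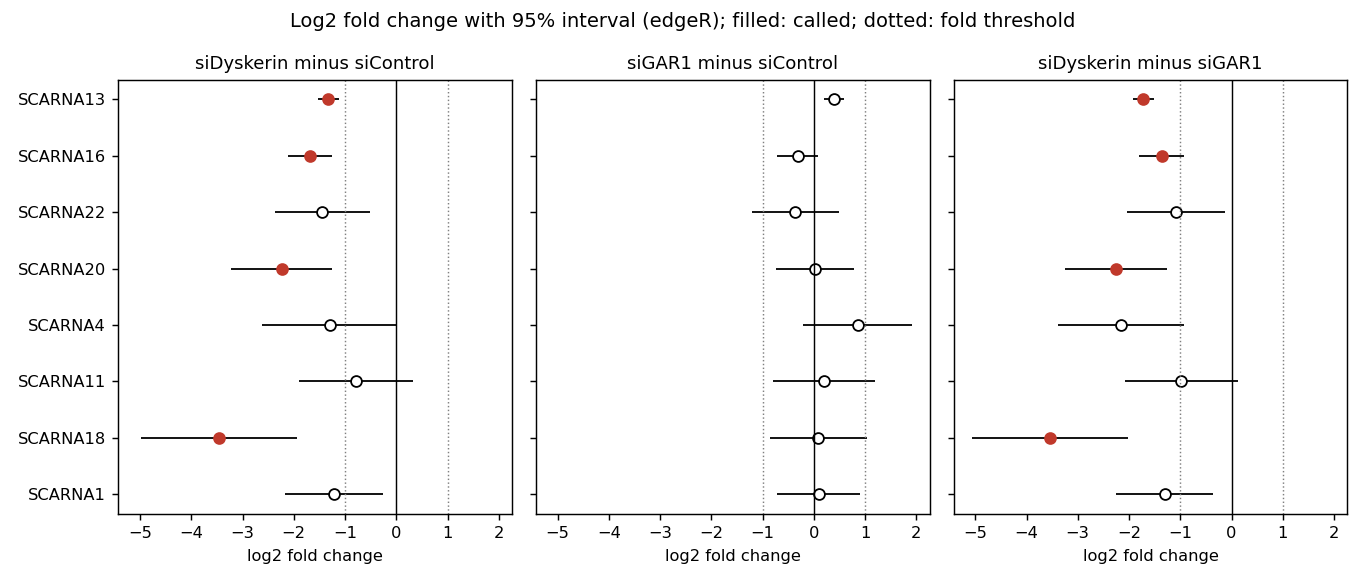
Log2 fold change (horizontal axes) with its 95% interval from edgeR for the 8 tested scaRNAs in the 3 comparisons; filled points were called, and dotted lines mark the fold threshold of 1 in each direction. After dyskerin depletion all 8 points lie left of 0, whereas after GAR1 depletion they lie between −0.36 and 0.85.

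The knockdowns were next set directly against each other, which tests whether the scaRNAs differed between depletion of the synthase and depletion of GAR1. SCARNA13 (log2 fold change −1.73, SE 0.10, edgeR adjusted p = 1.6e-07), SCARNA16 (−1.36, SE 0.20, edgeR adjusted p = 7.0e-04), SCARNA18 (−3.55, SE 0.71, edgeR adjusted p = 0.0053) and SCARNA20 (−2.25, SE 0.46, edgeR adjusted p = 0.0061) were lower in siDyskerin than in siGAR1. These were 4 of 8 tested, beside 0.52% of all genes called lower. The median over the 8 was −1.55. SCARNA1, SCARNA4, SCARNA11, SCARNA18 and SCARNA20 passed the count filter without any siDyskerin library, so this count and median also describe the tested members alone. SCARNA4 had the third lowest value at −2.15 (95% interval −3.39 to −0.92, edgeR adjusted p = 0.026). SCARNA1 was at −1.31 (edgeR adjusted p = 0.072), SCARNA22 at −1.08 (edgeR adjusted p = 0.14) and SCARNA11 at −0.98 (edgeR adjusted p = 0.26). Without siGAR1 replicate 1 SCARNA22 was at −0.52 and SCARNA11 at −0.39, and without siDyskerin replicate 1 SCARNA11 was at −0.63. This comparison shares the siDyskerin libraries with the one against siControl and is not independent of it.

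Of the 3 comparisons this one moved the most with SNORD factors, which put the median of all genes at 0.54. With them SCARNA13 was at −1.18 (edgeR adjusted p = 9.8e-04) and remained called, whereas SCARNA16 was at −0.83 (edgeR adjusted p = 0.050), SCARNA18 at −3.02 (edgeR adjusted p = 0.011) and SCARNA20 at −1.62 (edgeR adjusted p = 0.031), and these 3 lost their calls. SCARNA1, SCARNA22 and SCARNA11 were at −0.73, −0.45 and −0.33. All 8 values stayed below 0. The calls of SCARNA18 and SCARNA20 also depended on single libraries. Both were lost without siGAR1 replicate 1, siGAR1 replicate 2 or any siDyskerin library. SCARNA18 was also lost without siControl replicate 2 or siGAR1 replicate 3, and SCARNA20 without siControl replicate 3. The edgeR adjusted p in these fits was 0.010 to 0.030 for SCARNA18 and 0.010 to 0.039 for SCARNA20.

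Host genes were examined because an intronic RNA is made from the transcript of its host. Their reads were summed without transcripts that overlap a short RNA gene. SNHG10, host of SCARNA13, was at 170 ± 5.82 scaled reads in siDyskerin against 248 ± 35.3 in siControl (log2 fold change −0.55, 95% interval −0.83 to −0.27, edgeR adjusted p = 0.012), a smaller difference than the −1.33 of the scaRNA. USP32, a ubiquitin-specific protease and host of SCARNA20, had a value of 0.22 (edgeR adjusted p = 0.024), opposite in sign to its scaRNA. NSD2, a histone methyltransferase and host of SCARNA22, fell by 0.24 on the log2 scale (edgeR adjusted p = 0.0072). TMEM167A, host of SCARNA18, was at 0.04 (95% interval −0.12 to 0.21), and SEC14L1, whose span holds SCARNA16, was at −0.07 (95% interval −0.20 to 0.05). PPP1R8, CHD4 and KHDC4 had values of −0.03, 0.11 and 0.11, and HAUS6 and TIPIN, hosts of the 2 untested scaRNAs, had values of 0.01 and −0.19. After GAR1 depletion USP32 rose by 0.30 (edgeR adjusted p = 0.0069) and SNHG10 was at 0.02. With SNORD factors, on sums of all transcripts, no host passed, and NSD2 was at 0.004 in siDyskerin and USP32 at −0.002 in siGAR1. At any fold, 3.32% of all genes passed lower and 3.08% higher in siDyskerin, and 1.79% and 1.63% in siGAR1.

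**Figure D4:**
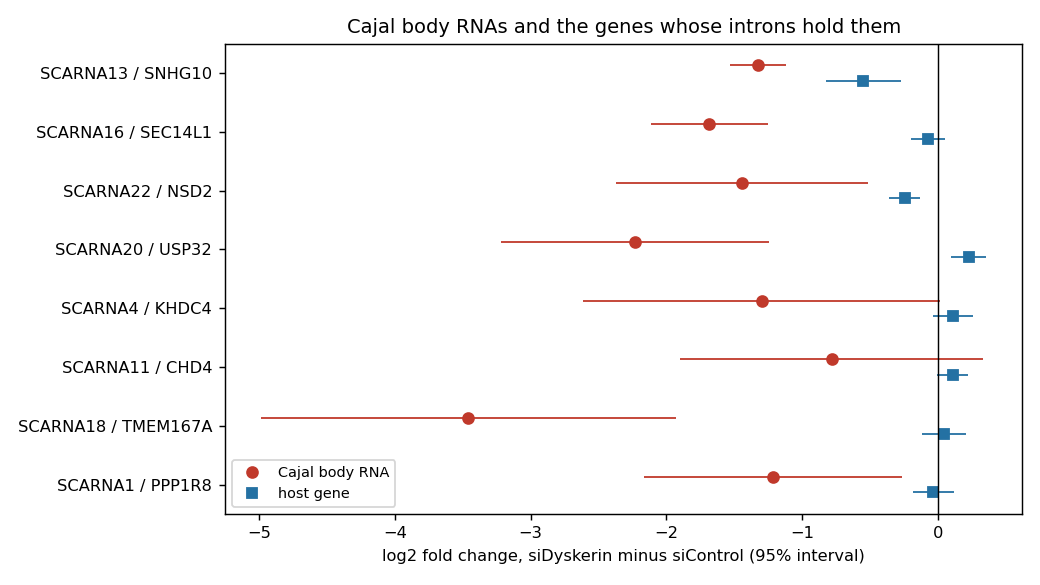
Log2 fold change between siDyskerin and siControl with its 95% interval (horizontal axis) for the 8 tested scaRNAs (circles) and their hosts (squares). Each scaRNA lies left of its square, and the squares lie between −0.55 and 0.22. For SCARNA16 the square is SEC14L1, whose span holds it. SNHG20, whose intron holds SCARNA16, is not shown.

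SCARNA16 needed a separate look, because 1 annotated SNHG20 transcript holds the whole scaRNA in an exon and can count its reads again. The values below take each SCARNA16 read as counted in full in both, which was not tested. On that basis, SCARNA16 reads made up 60.5 to 64.4% of the reads of this transcript in siControl. Without them the transcript had 141, 122 and 98 reads in siControl, 34, 62 and 31 in siDyskerin and 97, 85 and 88 in siGAR1. The scaled values were 113 ± 6.44, 43.5 ± 11.0 and 94.9 ± 12.0 (n = 3). The groups did not overlap in any pair, though the highest siGAR1 library, at 108.5, was close to the lowest control at 108.9. Each pair gave an exact two-sided permutation p = 0.1, the smallest possible. On the same basis, reads of this transcript outside SCARNA16 lay lower than in siControl in each siDyskerin library and, by less, in each siGAR1 library. The rest of SNHG20 was at 0.16 (95% interval −0.08 to 0.40) when transcripts over short RNA genes were left out, and at −0.32 when they were counted. The apparent direction of this host therefore turned with the handling of this transcript.

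Other small RNAs were measured alongside. The 4 mixed scaRNAs SCARNA5, SCARNA6, SCARNA10 and SCARNA12, which join an H/ACA and a C/D part in 1 molecule, had a median of −0.21 after dyskerin depletion, and the 4 C/D scaRNAs SCARNA2, SCARNA7, SCARNA9 and SCARNA17 had a median of −0.13. None of these 8 passed with edgeR in any comparison. Unadjusted p was under 0.05 for 2 mixed ones after dyskerin depletion, and for 4 mixed and 1 C/D one between the knockdowns, where DESeq2 passed 1. SCARNA10, the best counted mixed one, was at 4131 ± 405 scaled reads in siDyskerin against 4810 ± 59.6 in siControl (log2 fold change −0.22, edgeR adjusted p = 0.11). With SNORD factors the medians were 0.04 and 0.11, so that their sign was not settled. Among SNORA genes, 39 of 64 tested were called lower with a median of −1.46, beside 0.531% of all genes tested. Among SNORD genes it was 0 of 31, with a median of −0.30 and 1 unadjusted p under 0.05. The tested ones were those of 213 SNORA and 314 SNORD genes that passed the count filter. These counts and medians therefore describe the tested genes alone. DESeq2 called 39 and 0, whereas with SNORD factors 15 SNORA genes were called lower, with a median of −1.24, and 0 SNORD genes.

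Of 4 further RNAs listed as H/ACA scaRNAs, SCARNA21 was tested and SCARNA3, SCARNA15 and SCARNA23 had too few reads. SCARNA21 was at 14.1 ± 1.90 scaled reads in siControl and 14.7 ± 5.80 in siDyskerin (log2 fold change 0.10, edgeR adjusted p = 0.91). SCARNA3 was at 1.52 ± 0.28 against 0.292 ± 0.505 and SCARNA23 at 4.20 ± 1.93 against 1.24 ± 1.46, values too low for a comparison. TERC, the telomerase RNA with an H/ACA domain, was listed at 0 in all libraries.

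**Figure D5:**
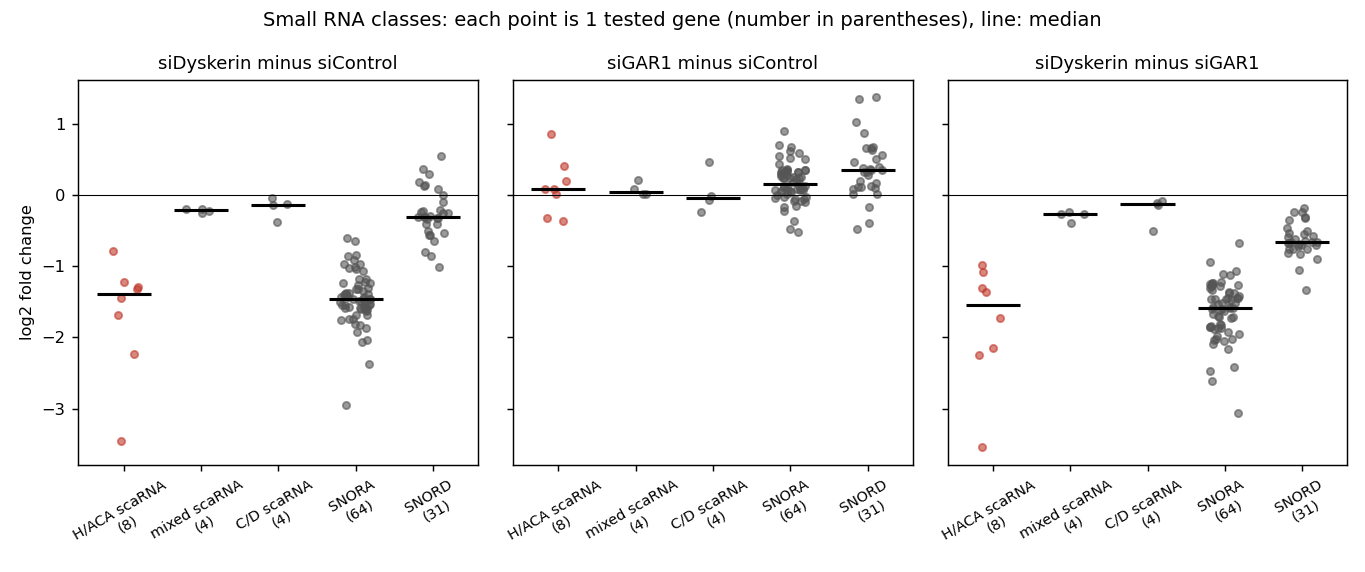
Log2 fold change (vertical axis) of tested genes in 5 classes of small RNA for the 3 comparisons, with the number of genes in parentheses and a line at the median. The H/ACA class holds only the 8 tested scaRNAs followed here, and SCARNA21, at 0.10 after dyskerin depletion, is not shown. These 8 scaRNAs and the SNORA genes have medians of −1.38 and −1.46 after dyskerin depletion, whereas the C/D and mixed scaRNAs lie near 0.

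The nuclear RNA of genes whose proteins act on these RNAs was also counted, whereas protein was not measured. Of 8 H/ACA core and assembly genes, DKC1 and RUVBL1 passed lower in siDyskerin. RUVBL1, an ATPase of snoRNP assembly, fell by 0.31 on the log2 scale (edgeR adjusted p = 0.0081). NHP2, NOP10, NAF1 and SHQ1 had values of −0.11 to 0.13. Of 17 Cajal body and localization genes, 1 passed lower and 0 higher, namely SNAPC1, a subunit of the complex that activates snRNA genes, which fell by 0.40 (edgeR adjusted p = 0.0052). WRAP53, the CAB box binding protein, was at −0.29 (edgeR adjusted p = 0.081) and COIL, the marker protein coilin, at −0.18 (edgeR adjusted p = 0.20). Of 13 genes of H/ACA RNA trimming and decay, TOE1, a deadenylase of Cajal bodies, was the 1 that passed, and fell by 0.42 (edgeR adjusted p = 8.4e-04). PARN, the deadenylase that trims H/ACA RNA ends, was at −0.06. With SNORD factors RUVBL1, SNAPC1 and TOE1 no longer passed. At any fold, 3.32% of all genes passed lower and 3.08% higher in siDyskerin. With that share, 1 gene in a list of this size says little about the list.

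In siGAR1, GAR1 was the only gene of these 3 lists that passed with edgeR in either direction. In siDyskerin against siGAR1, beside DKC1 and GAR1, ELL passed lower (log2 fold change −0.44, edgeR adjusted p = 0.0076) and NCBP2, a cap-binding subunit, higher (0.30, edgeR adjusted p = 0.0066). With SNORD factors neither passed, and ELL was at 0.09. At any fold 2.78% of all genes passed lower and 2.61% higher in that comparison.

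Spliceosomal snRNAs are the targets of scaRNAs as a class. Of 11 listed, 6 passed the count filter, and RNU1-1, RNU2-1 and RNU6-1 were listed at 0. The 6 were RNU4-1, RNU4-2, RNU11, RNU12, RNU4ATAC and RNU6ATAC. No listed gene of U1, U2 or U5 snRNA, the targets assigned above, was thus tested. After dyskerin depletion the 6 had values of −0.33 to −0.04 and none passed. After GAR1 depletion they had values of 0.25 to 0.84, and none passed, with 4 unadjusted p under 0.05 and 0 passed by DESeq2. With SNORD factors the ranges were −0.13 to 0.16 and −0.19 to 0.46, so that signs changed within both. RNU4-2 was at 1738 ± 360 scaled reads in siControl, 1591 ± 384 in siDyskerin and 3016 ± 838 in siGAR1. It was the 1 snRNA that passed between the knockdowns (log2 fold change −0.92, edgeR adjusted p = 0.0096), and it did not with SNORD factors. RNU4-1 and RNU4-2 are near-identical copies and share reads. The level of an snRNA says nothing about its pseudouridines, which were not measured in these libraries.

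The genes whose log2 CPM followed the mean of the 8 tested scaRNAs most closely over the 9 libraries were SNORA68 (Pearson r = 0.987), SNORA2C, SNORA57, SNORA79B and CSKMT (r = 0.983), the last a protein-coding gene. Their log2 fold changes after dyskerin depletion were −1.59, −1.62, −1.24, −2.03 and −0.52. CSKMT is a snoRNA host gene, and its sum kept any transcripts that overlap short RNA genes. Whether CSKMT followed the scaRNAs apart from reads of a snoRNA was not tested. Of the 50 closest genes 27 were SNORA genes, of which 64 were among the 18424 genes ranked. The 9 points share the 3 group means and the depth of their libraries, so that r is a description.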

How the data were processed

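Nuclear RNA of 9 U2OS libraries, 3 per siRNA, was analysed from per-library transcript tables. The authors trimmed reads with Trim Galore 0.6.4, removed rRNA and tRNA reads with Bowtie2 2.4.1 and quantified GENCODE 27 transcripts on GRCh38 with Salmon 1.2.0. The deposited values are expected counts and TPM; all but 8 of 1803609 expected counts were whole numbers, within 1e-06. Since nearly all values were whole, a read that fits several transcripts was taken to be counted in each, which was not tested. Of 200401 transcripts, 195887 were matched to 58425 genes of GENCODE 44; the 4514 others held 3.69 to 3.84% of reads and were left out. Expected counts were rounded and summed per gene.

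Genes were tested with edgeR 4.0.16 in R 4.3.3 (TMM, filterByExpr, robust quasi-likelihood F-test, 2-sided) over all 9 libraries without covariates, with Benjamini-Hochberg adjustment over 18444 genes. The common biological coefficient of variation was 0.0886, and low counts were limited by counting error. Standard errors and 95% intervals are those of the fit, and intervals of read ratios are exact (Clopper-Pearson). Errors are SD over 3 libraries. Replicates of a group differed beyond sampling noise (chi-square over degrees of freedom 7.85 to 33.2). Scripts were tested on simulated data.

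The members, lists and tests were chosen with earlier results of these data known. Named were all 10 members, DKC1, GAR1, the hosts by annotation, lists with their members that passed, and the 5 genes closest in profile; some list genes, the SNHG20 transcript, SCARNA10 and RNU4-2 were named after their values were seen. Alternatives were DESeq2 1.42.0, RLE factors, no count filter, lengthScaledTPM counts, transcript-level reads, a replicate block, only the 2 groups compared and each library left out. Factors from SNORD genes, sums without transcripts over short RNA genes and sums by symbol were added after seeing the data. Other tools were Python 3.11.15, pandas 2.3.3, scipy 1.17.1 and matplotlib 3.10.9.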

Additional observations from a re-analysis of the deposited data

How the results depend on the processing

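The counts of scaRNAs called lower were 4 against siControl and 4 against siGAR1. With DESeq2 they were 2 and 2, where DESeq2 gave no adjusted p to SCARNA18 and SCARNA20, and with factors from SNORD genes 2 and 1. With each library left out they ranged from 2 to 4 in both comparisons. Without the count filter they were 5 and 5, adding SCARNA22 and SCARNA4, respectively, and with transcript-level reads 4 and 5; the cause was not tested. Under the replicate block they were 3 and 3, losing SCARNA20, and with only the 2 groups compared 3 and 3, since SCARNA18 then failed the count filter. With lengthScaledTPM counts they were 4 and 3. Same-numbered deviations over all tested genes correlated at −0.072 to 0.104. They were not compared with differently numbered ones, so whether the replicate numbers pair the samples was not settled. No scaRNA was called after GAR1 depletion in any of these fits.

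Among the 8 tested scaRNAs, values reversed only in siGAR1 against siControl; the medians of the mixed and C/D scaRNAs also turned in siDyskerin against siControl with SNORD factors. With SNORD factors SCARNA1 was at −0.28, SCARNA11 at −0.25, SCARNA18 at −0.28 and SCARNA20 at −0.40, and SCARNA20 was at −0.013 with DESeq2 and −0.034 with lengthScaledTPM counts. With a library left out SCARNA1 ranged from −0.067 to 0.33, SCARNA11 from −0.40 to 0.54, SCARNA18 from −0.16 to 0.31 and SCARNA20 from −0.38 to 0.24. Few reads limit 7 of the 10 RNAs. By scaled reads SCARNA1, SCARNA11 and SCARNA18 ranked 6, 7 and 8 instead of 8, 6 and 7.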
